A study of Mus musculus with 20 samples.

Results

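The transcripts described here are the 9 genes for the phagocyte NADPH oxidase and the receptors for the Fc part of IgG that were measured in adipose tissue of mice with induced loss of α4. They are Cybb, Cyba, Ncf1 and Ncf4 of the oxidase, the activating receptors Fcgr1, Fcgr3 and Fcgr4, their signalling chain Fcer1g, and the inhibitory receptor Fcgr2b. They were taken by symbol from a list drawn up with earlier results of these data known. All 9 were found among the 25219 genes of the expression table and passed the filter on low counts in both tissues.

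RNA was sequenced from inguinal white adipose tissue (iWAT) and brown adipose tissue (BAT) of male mice on a mixed C57Bl/6 background, 5 libraries for each genotype and tissue. Ai-α4KO mice carried floxed α4 alleles (gene Igbp1) and Adiponectin-CreERT2, a tamoxifen-activated Cre recombinase driven by a promoter active in adipocytes, so the deletion was aimed at adipocytes while the RNA came from whole tissue with all its other cells. Control mice carried the floxed alleles without the Cre transgene, as the study's methods say, and are called WT in the labels of the libraries; both genotypes received 5 injections of tamoxifen over 6 days from 2 months of age, and tissue was taken 1 week after recombination. The labels do not say whether an iWAT and a BAT library came from the same mouse.

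The phagocyte NADPH oxidase passes electrons from NADPH across a membrane to oxygen and so makes superoxide. Its catalytic subunit (Cybb) sits in the membrane with a stabilising partner (Cyba), and an organiser (Ncf1), a regulator that binds phosphoinositides (Ncf4) and a Rac GTPase join it when the cell is stimulated. Fc gamma receptors bind antibody of immune complexes and coated particles: the activating receptors signal through the common gamma chain (Fcer1g) and the kinase Syk, and Fcgr2b opposes them through the phosphatase encoded by Inpp5d. In adipose tissue these genes are known mainly from macrophages and other myeloid cells, and Fcgr2b also from B cells.

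The positions are those of the deposited table, on the mouse build mm10, and each entry is a protein-coding gene. Cybb (Entrez 13058) lies on the minus strand of chromosome X from 9435254 to 9469324, Cyba (13057) on the minus strand of chromosome 8 from 122424771 to 122432940, and Ncf1 (17969) on the minus strand of chromosome 5 from 134220053 to 134229625. Ncf4 (17972) lies on the plus strand of chromosome 15 from 78244811 to 78262580, and Fcgr1 (14129) on the minus strand of chromosome 3 from 96282909 to 96293969. The other 4 are neighbours within 273.8 kb of chromosome 1. Fcgr2b (14130) comes first, on the minus strand from 170960559 to 170976071, and Fcgr4 (246256) follows on the plus strand from 171018926 to 171029761. Fcgr3 (14131) spans 171051169 to 171059403 and Fcer1g (14127) 171229572 to 171234349, both on the minus strand.

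Promoter sequence of RefSeq (build GRCm38.p6) was matched for 8 of the 9 genes, and none was at hand for Ncf4. The 250 bases before each start were searched on both strands for 3 motifs of factors used by myeloid cells: GAGGAA, the core bound by PU.1 (gene Spi1), GAAA followed after any 2 bases by GAAA again, the paired element bound by interferon regulatory factors, and TTCNNNGAA, the gamma-activated sequence bound by STAT factors. GAGGAA was found before 3 of the 8 genes (Fcgr1, Fcgr3 and Fcgr4), against 23.3% of 32851 promoters of the same length. The paired GAAA element was found before 3 genes (Cybb with 3 matches, Ncf1 and Fcgr4), against 2.98% of promoters, and TTCNNNGAA before 2 (Ncf1 and Fcgr1), against 7.02%. Cyba, Fcgr2b and Fcer1g held none of these letters in this window. The 130 bases before the start of the 5 genes with a match are shown 5′ to 3′ on the strand of the gene, since these are the members whose proximal promoter holds such letters, with the matched bases in capitals (a match on the other strand reads TTCCTC, or TTTC followed after any 2 bases by TTTC).
Cybb (chrX:9469325-9469454, minus strand): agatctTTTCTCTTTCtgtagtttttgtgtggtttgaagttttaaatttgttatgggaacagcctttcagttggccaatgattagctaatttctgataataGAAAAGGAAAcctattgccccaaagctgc
Ncf1 (chr5:134229626-134229755, minus strand): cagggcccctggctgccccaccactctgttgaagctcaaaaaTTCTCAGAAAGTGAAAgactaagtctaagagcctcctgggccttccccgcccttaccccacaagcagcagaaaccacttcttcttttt
Fcgr1 (chr3:96293970-96294099, minus strand): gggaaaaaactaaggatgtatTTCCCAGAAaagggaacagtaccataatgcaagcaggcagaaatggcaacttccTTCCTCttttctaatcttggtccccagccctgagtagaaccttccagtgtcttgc
Fcgr3 (chr1:171059404-171059533, minus strand): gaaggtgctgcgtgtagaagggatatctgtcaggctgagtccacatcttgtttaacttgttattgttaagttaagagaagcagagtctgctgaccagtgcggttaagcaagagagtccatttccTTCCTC
Fcgr4 (chr1:171018796-171018925, plus strand): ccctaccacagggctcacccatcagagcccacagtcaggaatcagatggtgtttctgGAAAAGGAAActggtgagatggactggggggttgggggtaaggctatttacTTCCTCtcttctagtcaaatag
In Ncf1 the TTCNNNGAA and paired GAAA matches overlap and form a single run of capitals. In Fcgr3 the TTCCTC match ends at the base next to the start. In Cybb the match farthest upstream lies outside the stretch shown. These are matches of letters, and binding was not measured.

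Library totals ran from 28060000 to 44050078 counts in Control iWAT, 31172518 to 50384446 in Ai-α4KO iWAT, 25031994 to 31188291 in Control BAT and 24023371 to 34274184 in Ai-α4KO BAT. Igbp1 stood at 57.5 to 76.6 CPM (counts scaled to one common library total) in Control and 10.1 to 11.1 in Ai-α4KO libraries of iWAT, and at 85.4 to 105 and 13.7 to 25.2 in those of BAT. Markers of B cells were high in 2 libraries only, Control iWAT replicate 1 (summed level 528 CPM over 9 genes) and replicate 4 (212 CPM), against 6.87 to 8.65 CPM in the other Control iWAT libraries. Markers of skeletal muscle summed to 14200 to 46800 CPM in Ai-α4KO BAT and 997 to 10200 CPM in Control BAT. In iWAT they were high in 2 libraries, Control replicate 4 (7450 CPM) and Ai-α4KO replicate 1 (6040 CPM), against 5.71 to 192 CPM in the other 8. Without Control iWAT replicates 1 and 4 all 9 genes below kept their call in iWAT, with log2 fold changes from 1.71 (Ncf1) to 3.83 (Fcgr4).

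All 9 genes were higher in Ai-α4KO than in Control tissue, in iWAT and in BAT, at an adjusted p below 0.01 and a change of at least 2-fold. Among all genes tested the share higher at these thresholds was 11.3% of 14604 in iWAT and 18.2% of 14344 in BAT. The median log2 fold change over the 9 genes was 2.37 in iWAT, where all tested genes had a median of 0.01, and 3.89 in BAT, where all tested genes had a median of -0.03. In both tissues the lowest Ai-α4KO library was above the highest Control library for 9 of 9 genes, a pattern shown by 20.7% of tested genes in iWAT and 23.5% in BAT. Fewer cells of a type and less RNA per cell cannot be told apart in RNA of whole tissue, and neither can more cells and more RNA per cell. The summed level of the 9 genes was 296 to 513 CPM in Control iWAT, 1770 to 2720 in Ai-α4KO iWAT, 63.1 to 124 in Control BAT and 1120 to 1680 in Ai-α4KO BAT.

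**Figure D1:**
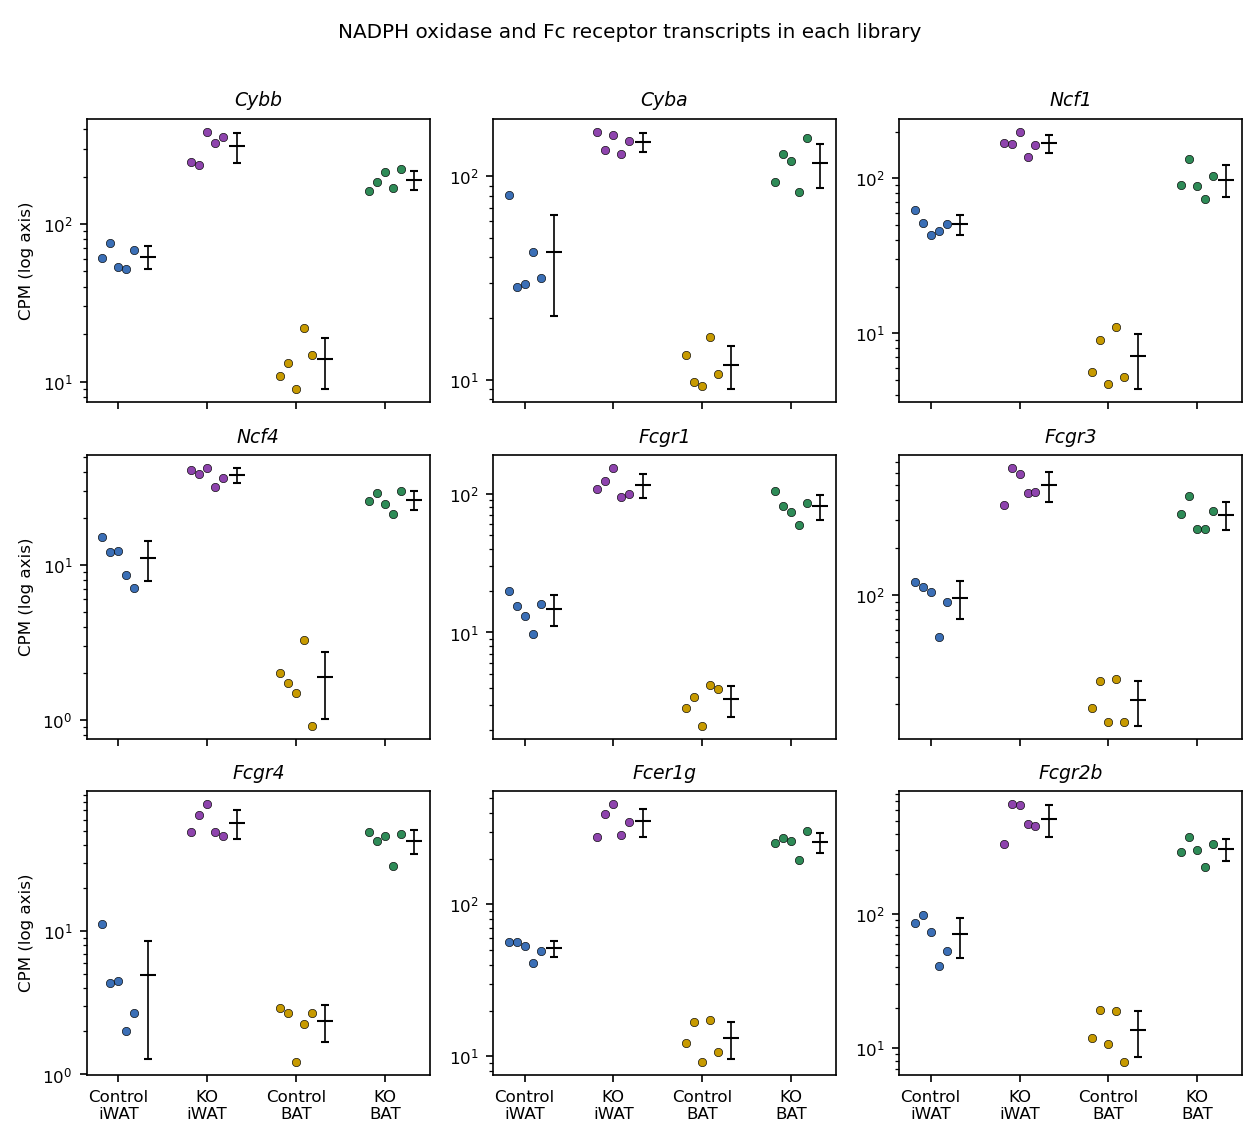
Level of each of the 9 transcripts in the 20 libraries, in CPM on a log axis, with 1 point per library and the mean ± SD of 5 libraries beside each group (KO, Ai-α4KO). Every Ai-α4KO point lies above every Control point of its tissue, and Control BAT is the lowest group except for Fcgr4, where it overlaps Control iWAT.

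Cybb, the catalytic subunit, stood at 60.7, 76.2, 53.5, 51.9 and 68.6 CPM in the 5 Control iWAT libraries and at 248, 237, 386, 327 and 359 CPM in Ai-α4KO iWAT. In BAT its level was 10.8, 13.1, 8.93, 21.8 and 14.8 CPM in Control and 161, 184, 213, 170 and 223 CPM in Ai-α4KO. The 4 groups did not overlap, and Control BAT lay far under Control iWAT while both Ai-α4KO groups lay above either Control group. The log2 fold change of Ai-α4KO over Control was 2.32 ± 0.172 (SE) in iWAT (edgeR adjusted p = 3.5e-06) and 3.74 ± 0.236 in BAT (edgeR adjusted p = 1.48e-07).

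Cyba, the membrane partner of Cybb, had an uneven Control group in iWAT. Its level in Control iWAT was 80.6, 28.4, 29.6, 42.3 and 31.7 CPM, the highest of them in replicate 1 and the next in replicate 4, which are the 2 libraries with high B cell markers. Ai-α4KO iWAT held 166, 135, 160, 129 and 150 CPM, all above that highest Control library. In BAT it stood at 13.2, 9.7, 9.34, 16.2 and 10.7 CPM in Control and 93.7, 129, 119, 83.9 and 154 CPM in Ai-α4KO. Cyba rose by 1.79 ± 0.275 on the log2 scale in iWAT (edgeR adjusted p = 0.000248) and by 3.26 ± 0.216 in BAT (edgeR adjusted p = 1.89e-07). With the B cell marker score as a covariate the iWAT estimate was 2.28.

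Ncf1, the organiser subunit, ran from 43.1 to 62.4 CPM in Control iWAT, 137 to 200 in Ai-α4KO iWAT, 4.71 to 11 in Control BAT and 73.4 to 134 in Ai-α4KO BAT. It had the smallest change of the 9 in iWAT, with a log2 fold change of 1.72 ± 0.132 (edgeR adjusted p = 3.75e-06), and changed by 3.75 ± 0.264 in BAT (edgeR adjusted p = 2.88e-07). Ncf4, the phosphoinositide-binding subunit, ran from 7.12 to 15.2 CPM in Control iWAT, 32.1 to 42.4 in Ai-α4KO iWAT, 0.916 to 3.28 in Control BAT and 21.5 to 30.2 in Ai-α4KO BAT. Its log2 fold change was 1.77 ± 0.193 in iWAT (edgeR adjusted p = 2.47e-05) and 3.76 ± 0.282 in BAT (edgeR adjusted p = 4.46e-07). For both genes the 4 groups were apart and fell in the order Control BAT, Control iWAT, Ai-α4KO BAT, Ai-α4KO iWAT.

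Fcer1g, the chain shared by the activating receptors, stood at 56.6, 56.4, 53.6, 41.4 and 49.1 CPM in Control iWAT. The Ai-α4KO iWAT libraries held 279, 393, 456, 286 and 349 CPM. Its BAT levels were 12.2, 16.8, 9.15, 17.2 and 10.7 CPM in Control and 255, 274, 260, 196 and 303 CPM in Ai-α4KO. The Ai-α4KO groups of the tissues overlapped each other and were apart from both Control groups. The log2 fold change was 2.77 ± 0.163 in iWAT (edgeR adjusted p = 1.8e-06) and 4.25 ± 0.208 in BAT (edgeR adjusted p = 5.43e-08).

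Fcgr1, the high-affinity activating receptor, ran from 9.69 to 19.8 CPM in Control iWAT, 95.2 to 153 in Ai-α4KO iWAT, 2.13 to 4.16 in Control BAT and 59.1 to 104 in Ai-α4KO BAT. By edgeR it had the largest change of the 9 in BAT, 4.57 ± 0.212 (edgeR adjusted p = 4.27e-08), and 2.96 ± 0.202 in iWAT (edgeR adjusted p = 2.53e-06). Fcgr3, a low-affinity activating receptor, stood at 120, 112, 104, 53.6 and 89.9 CPM in Control iWAT, while Ai-α4KO iWAT held 375, 645, 587, 444 and 450 CPM. In Control BAT its level was 18.9, 28.2, 15.4, 29.2 and 15.4 CPM, and in Ai-α4KO BAT 327, 428, 265, 263 and 344 CPM. Replicate 4 of Control iWAT was the lowest of its group for both receptors, and no Control library reached the Ai-α4KO range. Fcgr3 changed by 2.37 ± 0.23 in iWAT (edgeR adjusted p = 1.24e-05) and by 3.89 ± 0.235 in BAT (edgeR adjusted p = 1.12e-07).

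Fcgr4, an activating receptor of mouse monocytes, macrophages and neutrophils, had the lowest CPM of the Fc receptors in Ai-α4KO tissue. In Control iWAT it stood at 11.2, 4.35, 4.47, 2.0 and 2.67 CPM, and in Ai-α4KO iWAT at 49.3, 65.0, 77.1, 49.8 and 46 CPM. Its level in BAT was 2.91, 2.7, 1.22, 2.26 and 2.71 CPM in Control and 49.7, 42.7, 46.1, 28.5 and 47.7 CPM in Ai-α4KO. Control iWAT replicate 1 was far above the rest of its group, and the other Control iWAT libraries lay near the Control BAT level. That library also had the highest summed neutrophil markers of Control iWAT, 171 CPM against 20.3 to 69.0 CPM, beside its B cell markers. The part of the neutrophil markers in the Fcgr4 value was not tested. The log2 fold change of Fcgr4 was 3.52 ± 0.426 in iWAT (edgeR adjusted p = 4.82e-05), the largest of the 9 there, and 4.15 ± 0.24 in BAT (edgeR adjusted p = 9.29e-08). Without Control iWAT replicate 1 the iWAT value was 4.02, and with the B cell marker score as a covariate it was 3.92.

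Fcgr2b, the inhibitory receptor, stood at 86.6, 98.3, 74.2, 41.2 and 53.4 CPM in Control iWAT, while Ai-α4KO iWAT held 336, 664, 656, 476 and 461 CPM. In BAT its level was 11.8, 19.4, 10.7, 18.8 and 7.84 CPM in Control and 292, 377, 304, 227 and 338 CPM in Ai-α4KO. It was not highest in the libraries with high B cell markers: replicate 2 was the top of Control iWAT and replicate 4 the bottom. Fcgr2b and Fcgr3 were lowest of their iWAT groups in the 2 libraries with high muscle markers, and with the skeletal muscle marker score as a covariate their iWAT log2 fold changes were 2.83 and 2.35. The inhibitory receptor rose by 2.87 ± 0.272 on the log2 scale in iWAT (edgeR adjusted p = 1.1e-05) and by 4.46 ± 0.268 in BAT (edgeR adjusted p = 1.12e-07), so the activating receptors and the receptor that opposes them were higher in the same libraries.

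**Figure D2:**
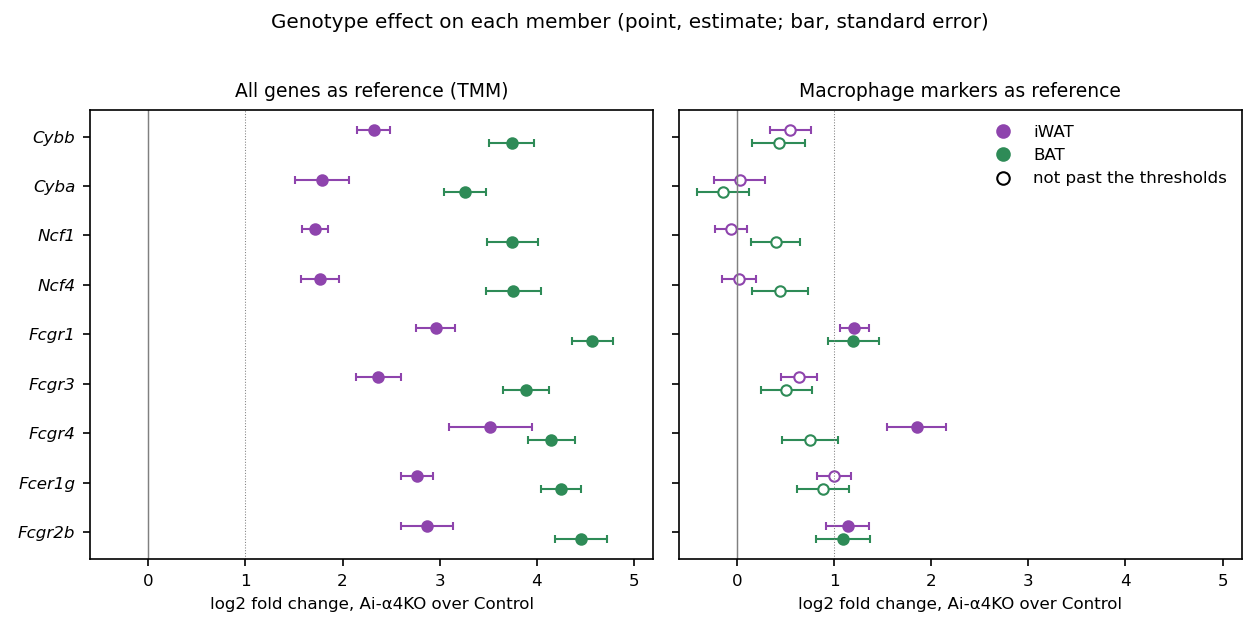
Log2 fold change of Ai-α4KO over Control for each gene in iWAT (purple) and BAT (green), with SE bars, on the usual scale (left) and after each library was scaled to the same level of 10 macrophage markers (right); filled points passed both thresholds and the dotted line marks a 2-fold change. On the left all values lie between 1.72 and 4.57, and on the right between -0.14 and 1.85, with the oxidase subunits nearest to 0.

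On the log2 scale the change was larger in BAT than in iWAT for 8 of the 9 genes, at an adjusted p below 0.01. This was tested as the interaction of both factors over the 20 libraries together. Of 15230 genes tested, 3.26% passed in that direction. In CPM the summed level of the 9 genes was still higher in Ai-α4KO iWAT (1770 to 2720) than in Ai-α4KO BAT (1120 to 1680). The difference between the log2 fold changes was 2.06 ± 0.292 for Ncf1 (edgeR adjusted p = 0.00033), 2.02 ± 0.338 for Ncf4 (edgeR adjusted p = 0.00102) and 1.64 ± 0.283 for Fcgr1 (edgeR adjusted p = 0.00126). It was 1.61 ± 0.373 for Fcgr2b (edgeR adjusted p = 0.00845), 1.54 ± 0.326 for Fcgr3 (edgeR adjusted p = 0.00485) and 1.51 ± 0.251 for Fcer1g (edgeR adjusted p = 0.00102). Cyba differed by 1.49 ± 0.352 (edgeR adjusted p = 0.00922) and Cybb by 1.45 ± 0.283 (edgeR adjusted p = 0.00291). Fcgr4 was the exception, with a difference of 0.65 ± 0.482 (edgeR adjusted p = 0.374), which does not show that its change was equal in the tissues. That value was 0.20 without Control iWAT replicate 1, 0.39 without replicates 1 and 4, and 0.14 with the B cell marker score as a covariate.

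These differences went with the level in tissue without deletion, and by construction the interaction is the tissue difference in Ai-α4KO less that in Control. Between the Control groups 8 of 9 genes were lower in BAT at an adjusted p below 0.01 and 2-fold, against 15.4% of genes tested, and all 5 Control iWAT libraries lay above all 5 Control BAT libraries for the same 8, against 19.1%. The log2 difference of BAT over iWAT in Control was -2.83 ± 0.22 for Ncf1 (edgeR adjusted p = 1.59e-08), -2.16 ± 0.208 for Cybb (edgeR adjusted p = 1.29e-07) and -1.85 ± 0.257 for Cyba (edgeR adjusted p = 7.91e-06). With the B cell marker score as a covariate Cyba was at -0.99 (edgeR adjusted p = 0.000728), under 2-fold, and 7 genes passed. For Fcgr4 the difference was -1.07 ± 0.357 (edgeR adjusted p = 0.017), and its Control groups overlapped. It was -0.41 with that covariate (edgeR adjusted p = 0.487), -0.51 without Control iWAT replicate 1 and -0.69 without replicates 1 and 4. Fcgr4 passed in 6 of 33 alternatives, among them DESeq2 (-1.08) and no TMM factors (-1.31). Between the Ai-α4KO groups the difference was -0.35 for Cyba to -0.77 for Ncf1, and 0 of 9 passed both thresholds in edgeR, where 4.09% of genes tested did so in that direction. At an unadjusted p under 0.05, 7 of the 9 were lower in Ai-α4KO BAT, against 27.1% of genes tested. DESeq2 and limma likewise gave 0 of 9 past both thresholds and 7 at that p, where 25% of genes tested were lower by DESeq2 and 36.2% to 36.6% by limma. Ncf1 (edgeR adjusted p = 0.00555) and Cybb (edgeR adjusted p = 0.00828) passed the p but not the 2-fold threshold. With the skeletal muscle marker score as a covariate the 9 differences ran from -0.83 for Ncf1 to -0.01 for Fcgr4, with Fcgr2b at -0.16 and Fcgr3 at -0.15, and edgeR adjusted p from 0.108 to 0.996. With the B cell marker score Cyba was at -0.15. All 5 Ai-α4KO BAT libraries exceeded all 5 Control iWAT libraries for 9 of 9 genes, against 20.5% of genes tested.

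The interaction calls for Cyba, Fcgr2b, Fcgr3 and Fcgr1 depended on the setting, and Cyba kept its call in 16 of 32 alternatives. With the B cell marker score as a covariate 5 genes passed. Cyba (0.84, edgeR adjusted p = 0.0308), Fcgr2b (1.66, edgeR adjusted p = 0.019) and Fcgr3 (1.57, edgeR adjusted p = 0.0128) did not. Without the 2 Control iWAT libraries with high B cell markers 7 genes passed, and Cyba had a difference of 1.1 (edgeR adjusted p = 0.0132). Leaving out Control BAT replicate 1 or replicate 3 also left 5. With the replicate number within each genotype as a block 6 passed, and Fcgr2b (1.66, edgeR adjusted p = 0.0103) and Fcgr3 (1.56, edgeR adjusted p = 0.0153) did not. By limma on log2(FPKM + 1) 6 passed, with Cyba at 1.4 (limma adjusted p = 0.0151) and Fcgr1 at 1 (limma adjusted p = 0.0143), and on log2(FPKM + 0.1) 7 passed, with Cyba at 1.47 (limma adjusted p = 0.0122).

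Markers of macrophages moved with these genes. Of 10 markers, 9 were higher in Ai-α4KO iWAT and 10 in Ai-α4KO BAT, with a median log2 fold change of 1.65 and 3.42. Their summed level was 1340 to 2510 CPM in Control iWAT, 7280 to 9540 in Ai-α4KO iWAT, 285 to 632 in Control BAT and 4700 to 7380 in Ai-α4KO BAT, and none of the 10 was at 0 counts in any library. The markers with the largest change in iWAT were Aif1 (log2 fold change 2.90) and Lyz2 (2.58), and in BAT again Aif1 (4.75) and Lyz2 (4.23). Csf1r, the receptor for the macrophage growth factor, changed by 1.03 in iWAT and 2.74 in BAT.

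To set the 9 genes beside the markers, each library was scaled so that the mean log2 CPM of the 10 markers was equal in all libraries. On that scale 79.4% of tested genes were lower in Ai-α4KO iWAT and 89.7% in Ai-α4KO BAT, and 1.4% and 1.23% were higher, so the values below are changes relative to macrophage markers and not changes in the tissue. None of the 4 oxidase subunits passed both thresholds on that scale in edgeR, in either tissue. The relative log2 change in iWAT was 0.55 ± 0.209 for Cybb (edgeR adjusted p = 0.0225), 0.03 ± 0.264 for Cyba (edgeR adjusted p = 0.918), -0.06 ± 0.164 for Ncf1 (edgeR adjusted p = 0.725) and 0.02 ± 0.178 for Ncf4 (edgeR adjusted p = 0.935). In BAT these 4 lay between -0.14 for Cyba and 0.44 for Ncf4. At an unadjusted p under 0.05 only Cybb in iWAT passed, where 2.69% of genes tested in iWAT and 1.92% in BAT were higher.

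Of the 5 Fc receptor genes, 3 in iWAT and 2 in BAT rose past both thresholds relative to the mean of the markers. The 10 markers also spread about that mean: Aif1 passed as higher in both tissues and Mertk as lower in BAT. In iWAT the relative change was 1.85 ± 0.306 for Fcgr4 (edgeR adjusted p = 5.51e-05), 1.21 ± 0.152 for Fcgr1 (edgeR adjusted p = 4.54e-06) and 1.14 ± 0.22 for Fcgr2b (edgeR adjusted p = 0.000226), which passed both thresholds. Fcer1g lay at the fold threshold (1 ± 0.171, edgeR adjusted p = 7.82e-05) and Fcgr3 below it (0.64 ± 0.184, edgeR adjusted p = 0.00435). In BAT Fcgr1 (1.20 ± 0.266, edgeR adjusted p = 0.000132) and Fcgr2b (1.09 ± 0.28, edgeR adjusted p = 0.00066) passed, while Fcer1g was at 0.89 (edgeR adjusted p = 0.00286, under 2-fold), Fcgr4 at 0.75 (edgeR adjusted p = 0.0162) and Fcgr3 at 0.51 (edgeR adjusted p = 0.0676). With 6 pan-leukocyte markers as the reference in place of the macrophage markers, 1 gene passed in iWAT (Fcgr4, 1.57) and 0 in BAT by edgeR. In BAT 2 were higher and 1 lower at an unadjusted p under 0.05, against 1.02% and 95.5% of genes tested. The count thus depends on the reference chosen. In Control iWAT the pan-leukocyte markers summed to 1160 and 846 CPM in replicates 1 and 4, which had high B cell markers, and to 370 to 433 CPM in the others. The part of those libraries in the iWAT count was not tested.

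Per transcript length (FPKM, fragments per kilobase of transcript, scaled to library depth), Fcer1g had the highest mean of the 9 in every group, at 70.2 ± 9.52 FPKM (SD, n = 5) in Control iWAT, 524 ± 104 in Ai-α4KO iWAT, 15.6 ± 4.3 in Control BAT and 358 ± 65.5 in Ai-α4KO BAT. Fcgr3 came next, at 63.8 ± 18.1, 361 ± 77.4, 12.3 ± 3.87 and 221 ± 55.8 FPKM in the same order of groups. Cyba and Fcgr2b took the next places, with Cyba above Fcgr2b in both Control groups and below it in both Ai-α4KO groups. Neighbours among these 4 overlapped in every group, whereas a gap with no overlap separated the fourth place from the fifth in all 4 groups.

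Below the gap, Cybb and Ncf1 took places 5 and 6 in Control iWAT, Ai-α4KO iWAT and Control BAT, with overlapping libraries. In Control iWAT Ncf1 had 15.4 ± 2.95 and Cybb 11.8 ± 2.25 FPKM, and in Ai-α4KO BAT Cybb had 36.5 ± 5.34, Fcgr4 31.5 ± 7.2 and Ncf1 30.3 ± 8.28 FPKM. Cybb was thus well under its partner Cyba, which stood at 51.0 ± 28.5 FPKM in Control iWAT, against 139 ± 36.4 in Ai-α4KO BAT. The lowest gene was Fcgr4 in Control iWAT (3.59 ± 2.8 FPKM), Fcgr1 in Control BAT (0.993 ± 0.266) and Ncf4 in both Ai-α4KO groups (25.6 ± 2.73 in iWAT and 16.6 ± 2.85 in BAT). Only in Ai-α4KO iWAT was the lowest gene apart from the next.

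Over all libraries Fcgr3 fell relative to the inhibitory receptor in both tissues, while the ratios of Fcgr1 and Fcgr4 did not pass. Fcgr3 over Fcgr2b, as log2 of the ratio of FPKM, was 0.667, 0.386, 0.682, 0.572 and 0.943 in Control iWAT, against 0.348, 0.151, 0.032, 0.09 and 0.158 in Ai-α4KO iWAT. In BAT it was 0.873, 0.737, 0.724, 0.827 and 1.17 in Control and 0.355, 0.375, -0.006, 0.409 and 0.217 in Ai-α4KO. Every Control library had a higher ratio than every Ai-α4KO library of its tissue. The mean fell from 0.65 ± 0.20 (SD, n = 5) to 0.16 ± 0.12 in iWAT, a difference of -0.49, and from 0.87 ± 0.18 to 0.27 ± 0.17 in BAT, a difference of -0.60. Each had p = 0.00794 in an exact permutation test, two-sided, the smallest value that 5 against 5 libraries allow, and 0.0238 adjusted over the 6 ratios compared. Without Control iWAT replicates 1 and 4 the iWAT difference was -0.51 (exact permutation, adjusted p = 0.0714), where 3 against 5 libraries cannot go below an unadjusted p of 0.0357. Transcripts of the pair share sequence: 9.58% of the 50-base stretches of Fcgr3 transcripts are also in Fcgr2b, and fractional counts were seen for Fcgr3 in 10 and for Fcgr2b in 14 of 20 libraries, so the split of reads between them is uncertain to that extent.

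For Fcgr4 over Fcgr2b, the log2 ratio was -3.73 ± 0.63 (SD, n = 5) in Control iWAT, against -2.85 ± 0.24 in Ai-α4KO iWAT, a difference of 0.88 (exact permutation p = 0.0397, adjusted 0.0794), which did not pass at 0.05 after adjustment. Control iWAT replicate 1 had a ratio of -2.646, inside the Ai-α4KO range, while the other 4 lay between -4.191 and -3.747. Without it the difference was 1.15 and passed (exact permutation, adjusted p = 0.0318). In BAT the ratio was -2.21 ± 0.70 in Control and -2.54 ± 0.23 in Ai-α4KO, a difference of -0.33 (exact permutation p = 0.389, adjusted 0.584). The ratio of Fcgr1 to Fcgr2b differed between genotypes by 0.08 in iWAT (exact permutation p = 0.714) and 0.07 in BAT (exact permutation p = 0.802), both within the spread of the libraries.

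**Figure D3:**
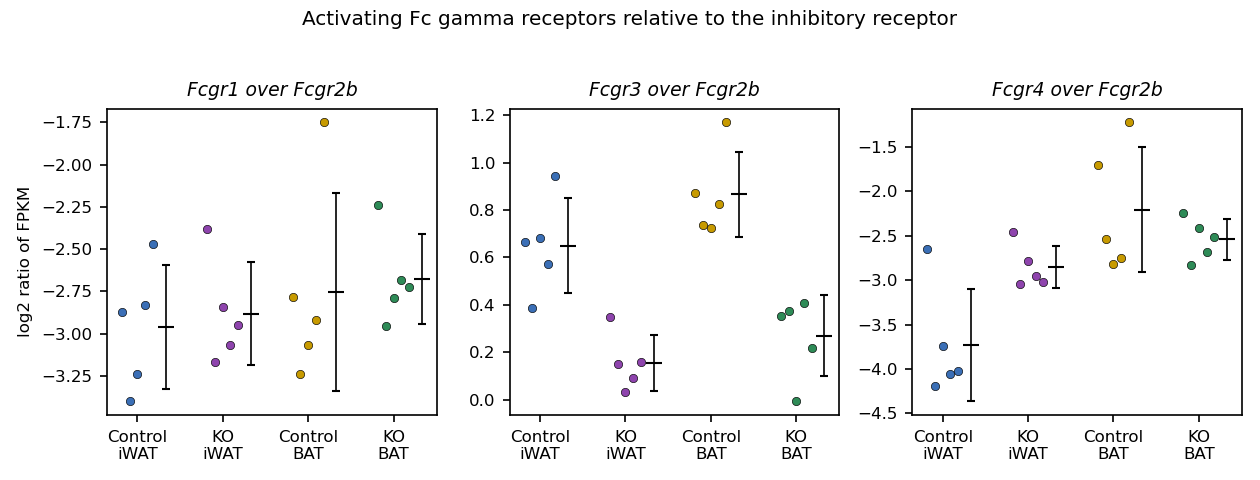
Log2 ratio of FPKM of each activating receptor to the inhibitory receptor Fcgr2b in each library (points) with the mean ± SD of 5 libraries (bars) in the 4 groups (KO, Ai-α4KO). For Fcgr3 the Control and Ai-α4KO points of a tissue do not overlap, and for Fcgr1 they do in both tissues. For Fcgr4 1 Control iWAT library lies among the Ai-α4KO points of iWAT, and the BAT groups overlap.

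The 9 genes varied together across the 20 libraries. Pearson's r of log2 CPM between pairs ran from 0.859 (Ncf1 and Fcgr4) to 0.997 (Fcgr2b and Fcgr3), which mostly reflects the 4 groups the libraries share. After the group means were taken out, r between pairs ran from 0.198 (Cyba and Fcgr2b) to 0.928 (Fcgr2b and Fcgr3). Among 15230 genes, those most like Cybb over the 20 libraries were Ly86, Cd200r1 and Ehd4 (each r = 0.993), and those most like Cyba were Snx20 (0.989), Fxyd5 (0.989) and Ctss (0.987). Fcer1g was most like Lyz2, Clec4a3 and Igsf6 (each r = 0.995), and Fcgr2b like Fcgr3 (0.997), Cacna1d (0.995) and Igsf6 (0.994). These are descriptions over libraries of shared groups and carry no test.

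Other parts of the phagocyte oxidase were measured beside the 9 genes. Rac2, the Rac GTPase of blood cells, rose by 3.48 in BAT (edgeR adjusted p = 2.51e-07) and had a value of 0.95 in iWAT (edgeR adjusted p = 0.0918). Its level in Control iWAT was 164 and 114 CPM in replicates 1 and 4, the libraries with high B cell markers, against 30.3 to 36.9 CPM in the other 3, and 131 to 162 CPM in Ai-α4KO iWAT. The part of those 2 libraries in this value was not tested. The proton channel gene Hvcn1 (1.49) and BC017643 (1.09), the table's symbol for the chaperone gene Cybc1, also rose in BAT. Rac1 and Rap1a, GTPases of most cells, passed in neither tissue.

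Other NADPH oxidases did not move as a group. Of 9 listed genes 4 were expressed enough to be tested in each tissue. Nox4, the constitutively active family member, rose by 1.45 in BAT (edgeR adjusted p = 0.00516) and had a value of 0.68 in iWAT (edgeR adjusted p = 0.163), and Noxo1, an organiser of Nox1, fell by 1.36 in iWAT (edgeR adjusted p = 0.00109). Nox3 was at 0 CPM on average in all groups.

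Of 13 other Fc receptor genes, 10 were tested in iWAT, where 1 rose and 1 fell, and 6 in BAT, where 4 rose. Fcgrt, the neonatal receptor that recycles IgG, was higher than any other gene of this list and passed in neither tissue (log2 fold change 0.07 in iWAT, edgeR adjusted p = 0.683, and -0.38 in BAT, edgeR adjusted p = 0.0632). The alpha and beta chains of the IgE receptor rose in BAT, Fcer1a from 1 to 9 counts per Control library to 65 to 210 in Ai-α4KO, and Ms4a2 from 1 to 4 to 15 to 43. The B cell genes Fcrl1 (1 to 9 counts in Control, 13 to 45 in Ai-α4KO) and Fcrla (3 to 13 and 20 to 92) rose there too. In iWAT Fcrlb rose from 0 to 16 counts per library to 21 to 170 (edgeR adjusted p = 0.00211), and Pigr, the receptor for polymeric immunoglobulin, fell from 10 to 62 counts to 0 to 12 (edgeR adjusted p = 0.00689). Fitted fold changes at such counts depend on the prior count and are not given.

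Signalling genes below the Fc receptors rose with them. Of 18 activating genes 16 rose in iWAT and 18 in BAT, with a median log2 fold change of 1.82 and 3.17. Among all genes tested the share that rose was 11.3% in iWAT and 18.2% in BAT. Relative to macrophage markers 1 activating gene (Fgr) rose and 2 fell in each tissue, with medians of 0.06 and -0.17. Syk, the kinase that binds the gamma chain, rose by 1.34 in iWAT (edgeR adjusted p = 0.00107) and 3.12 in BAT (edgeR adjusted p = 2.6e-06), and the adaptor Tyrobp by 2.40 (edgeR adjusted p = 7.38e-06) and 3.98 (edgeR adjusted p = 5.43e-08). The Src-family kinase Fgr and the adaptor Lcp2 had the largest changes in both tissues, 3.43 and 2.58 in iWAT and 5.09 and 4.13 in BAT. The smallest among those called were Pik3cd (1.29) and Syk in iWAT and Vav3 (1.02) and Lyn (1.71) in BAT. Hcst and Lat did not pass in iWAT, with values of -0.02 and -2.92. Lat stood at 41.6 and 39.3 CPM in Control iWAT replicates 1 and 4 and at 1.27 to 1.43 CPM in the other 3, against 1.4 to 3.01 CPM in Ai-α4KO iWAT. Hcst stood at 6.59 and 5.41 CPM in these 2 libraries and at 0.751 to 1.06 CPM in the other 3, against 2.36 to 3.44 CPM.

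Of 7 genes of inhibitory signalling 4 rose in iWAT and 5 in BAT, with a median of 1.01 and 2.15. Relative to macrophage markers 0 rose, and 2 fell in iWAT and 4 in BAT, with medians of -0.73 and -1.3. Inpp5d, the phosphatase recruited by Fcgr2b, rose by 1.27 in iWAT (edgeR adjusted p = 0.000485) and 2.73 in BAT (edgeR adjusted p = 3.2e-06), and the phosphatase gene Ptpn6 by 1.59 (edgeR adjusted p = 0.00238) and 3.74 (edgeR adjusted p = 8.26e-08). Dok2 rose by 2.16 and 3.28 and Dok1 by 1.01 and 1.84, and Dok3 rose in BAT (2.15). Inppl1 and Ptpn11, which most cell types express, passed in neither tissue.

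**Figure D4:**
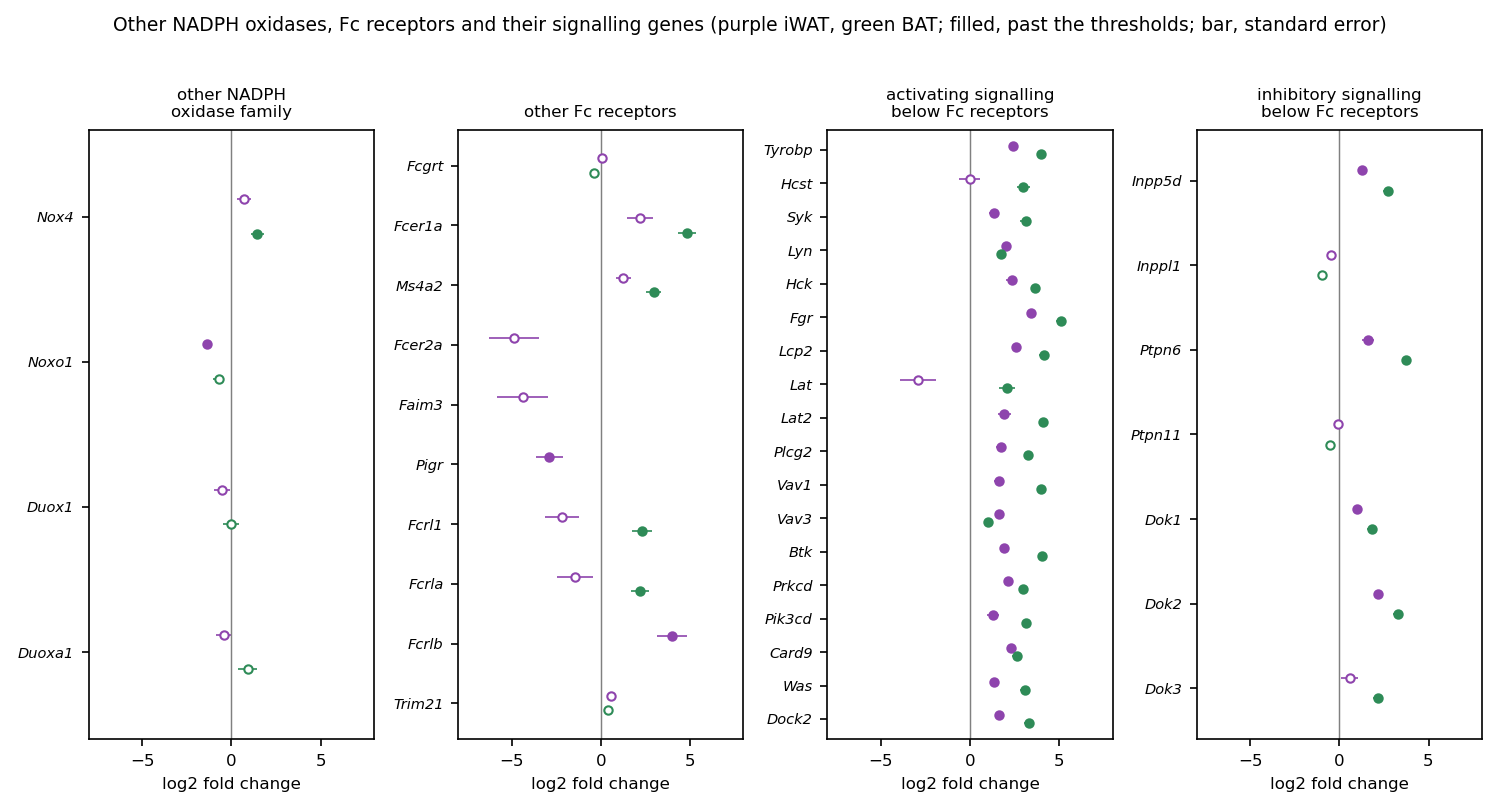
Log2 fold change of Ai-α4KO over Control for the tested genes of 4 pathway lists, in iWAT (purple) and BAT (green), with SE bars; filled points passed both thresholds. Nearly all genes of activating signalling are filled on the positive side, 16 of 18 in iWAT and 18 of 18 in BAT, while the other NADPH oxidases have 1 filled point in each tissue, Nox4 above 0 in BAT and Noxo1 under 0 in iWAT.

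Transcription factors of myeloid cells were measured as well. Spi1, which encodes PU.1, rose by 1.86 in iWAT (edgeR adjusted p = 7.36e-05) and 3.63 in BAT (edgeR adjusted p = 3.25e-07). Irf8 rose by 2.96 in BAT (edgeR adjusted p = 3.91e-07) and had a value of 0.71 in iWAT (edgeR adjusted p = 0.212). Its level in Control iWAT was 67.2 and 29.7 CPM in replicates 1 and 4 and 11 to 13.7 CPM in the other 3, against 34.5 to 53.6 CPM in Ai-α4KO iWAT. Cebpe rose from 10 to 17 counts per library to 111 to 372 in iWAT, and from 0 to 5 counts to 31 to 40 in BAT. In iWAT Irf5 rose by 2 and Cebpb by 1.01. Irf1, whose protein product binds the paired GAAA element searched above, passed in neither tissue, with a value of 0.33 in iWAT and 0.35 in BAT.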

How the data were processed

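RNA of whole iWAT and BAT was measured in 20 libraries (TruSeq Stranded mRNA), and the labels give each library its tissue, genotype and number. The submitters' processing notes name bcl2fastq 2, STAR 2.5.3a and mm10 without a role; the counting tool and the annotation release are not given in the sources used here. The authors deposited an expected count per gene and library, without normalization, of which 76.6% of the nonzero values are whole. The authors also deposited FPKM, which scales by transcript length and library depth. The labels identify no mouse, so p-values measure the spread between these libraries.

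After rounding to whole numbers, expected counts went into edgeR 4.0.16 under R 4.3.3: filterByExpr with default settings, TMM normalization, glmQLFit and glmQLFTest, with Benjamini-Hochberg adjustment over all genes tested. Each tissue was fitted alone, and tissue differences and the interaction came from a fit of 20 libraries. A gene was called at an adjusted p below 0.01 and a change of at least 2-fold. The study's text gives these thresholds and a figure legend a looser adjusted p, tried below as an alternative. The interaction was called at the adjusted p alone, a choice made here. CPM are TMM-scaled over 20 libraries, and log2 values used a prior count of 2. For values relative to macrophage markers, each library was offset so that the mean log2 CPM of the markers was equal. Ratios of FPKM of 2 genes were tested by permutation, exact and two-sided, with 252 ways to arrange 5 against 5 libraries. Of these tests only the edgeR fits were also run on simulated counts, and no error rate is given here.

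The 9 genes and all lists were chosen with earlier results of these data known. The text names the 9 genes, Igbp1, Rac2, Nox4, Fcgrt, Syk, Tyrobp, Inpp5d, Ptpn6, Spi1 and Irf8, the called genes with the 2 largest and 2 smallest changes of each list, and the 3 genes most like Cybb, Cyba, Fcer1g and Fcgr2b. Other names were chosen after their values were seen. Some listed genes are not reported here, and no count is given for their lists. Of 148 listed genes, 2 were not found in the table (Ly6g and Ighd) and 3 were found under another symbol by Entrez ID. The comparison of the Ai-α4KO tissues and the ratios without Control iWAT replicates 1 and 4 were chosen after seeing the data.

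Alternatives were the Wald test of DESeq2 1.42.0, upper-quartile factors or none, no filter or a minimum of 10 counts per library, a looser adjusted p of 0.05, other sets of libraries in a fit, limma 3.58.1 on log2(FPKM + 1) and log2(FPKM + 0.1) for genes with 0.5 FPKM in 5 libraries, a replicate block, B cell and muscle marker scores as covariates, pan-leukocyte markers as reference, and leaving out each library.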

Additional observations from a re-analysis of the deposited data

Results flagged for a closer look

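Among the 36 groups of 5 libraries checked for an outlying library, 2 had one, and chance alone marks about 1 group in 20. Both were Control iWAT replicate 1: Cyba at 80.6 CPM, with a gap to the next library of 0.734 of the group's range, and Fcgr4 at 11.2 CPM, with a gap of 0.732. The same library had the highest summed B cell markers of the 20 libraries (528 CPM). Without it the log2 fold change of Ai-α4KO over Control in iWAT was 2.10 for Cyba and 4.02 for Fcgr4, and with the B cell marker score as a covariate it was 2.28 and 3.92.

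The change between genotypes differed between the tissues for 8 genes by the interaction in edgeR, each larger in BAT on the log2 scale: by 2.06 for Ncf1, 2.02 for Ncf4, 1.64 for Fcgr1, 1.61 for Fcgr2b, 1.54 for Fcgr3, 1.51 for Fcer1g, 1.49 for Cyba and 1.45 for Cybb. In each case the Control level was lower in BAT. Skeletal muscle markers summed to 997 to 10200 CPM in Control BAT and 14200 to 46800 CPM in Ai-α4KO BAT, and with their score as a covariate 7 of the 8 passed, the exception being Cyba (1.42, edgeR adjusted p = 0.0224).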

How the results depend on the processing

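All 9 genes kept their call in iWAT under 23 alternatives and in BAT under 22, the replicate block included. That block was the replicate number within a tissue, and for the interaction the number within a genotype. Same-numbered libraries did not deviate together (correlations from -0.45 to 0.24), so they were taken to share only a number. With the replicate block the interaction count was 6 in place of 8, and the Fcgr3 over Fcgr2b differences were -0.49 in iWAT and -0.60 in BAT with an adjusted p of 0.125 each in an exact sign-flip test, where 5 pairs cannot go below 0.0625. Without Control iWAT replicates 1 and 4 the first was -0.51 (exact permutation, adjusted p = 0.0714). The interaction count was 5 with the B cell score and 5 to 8 with 1 library left out, lowest without Control BAT replicate 1 or 3. Counts relative to macrophage markers were 1 in iWAT and 0 in BAT with the pan-leukocyte reference; with 1 library left out they were 3 to 4 in iWAT and 1 to 2 in BAT, lowest without Control BAT replicate 5. With the pan-leukocyte reference, values near 0 changed sign: Cyba (-0.11) and Ncf4 (-0.34) in iWAT, and Cybb (-0.19), Ncf1 (-0.17), Ncf4 (-0.15) and Fcgr3 (-0.04) in BAT. Leaving out 1 library, relative values in iWAT ran from -0.10 to 0.25 for Cyba, -0.13 to 0.04 for Ncf1 and -0.11 to 0.07 for Ncf4. The Fcgr1 over Fcgr2b difference had a range of -0.04 to 0.20 for iWAT and -0.05 to 0.32 for BAT, and was -0.05 in BAT on log2(FPKM + 0.1). The Fcgr4 over Fcgr2b difference in iWAT ran from 0.77 to 1.15, and at the latter, without Control iWAT replicate 1, it passed (exact permutation, adjusted p = 0.0318). Fcgr4 passed between the Control tissues with DESeq2 (-1.08), without TMM factors (-1.31), with upper-quartile normalization (-1.19) and without Control iWAT replicate 4 (-1.27) or 5 (-1.23), and at the looser adjusted p (-1.07), and did not with the B cell score (-0.41) or without Control iWAT replicate 1 (-0.51). Where no cause is named, the cause was not tested. Without TMM factors the median of all genes shifted to 0.13 in iWAT and 0.23 in BAT, where 3251 genes were then higher and 1265 lower, against 2614 and 1910. Fcgr1, first of the 9 in BAT by edgeR, was at 3.87 there by limma on log2(FPKM + 1). Fcgr2b was no lower than 4.16 in BAT in any alternative, so that rank depends on the setting. Among the 9 genes the lowest counts in a library were 23 for Ncf4 and 27 for Fcgr4, in Control BAT.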

Other observations

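Markers of other cell types were measured beside the 9 genes. B cell and skeletal muscle marker scores were fitted as covariates, with the values given above, and pan-leukocyte markers served as a second reference. The part of the neutrophil, NK cell, mast cell and adipocyte markers below in the values of the 9 genes was not tested. Of 6 pan-leukocyte markers 5 rose in iWAT, from Laptm5 (log2 fold change 1.30) and Lcp1 (2.02) to Cd52 (2.06) and Cd53 (2.63), and 6 in BAT, from Coro1a (3.51) and Ptprc (3.65) to Cd53 (4.47) and Cd52 (4.52). Their summed level was 370 to 1160 CPM in Control iWAT, 1750 to 2690 in Ai-α4KO iWAT, 72.3 to 131 in Control BAT and 1120 to 1720 in Ai-α4KO BAT. Neutrophil markers rose for 4 of 8 tested genes in iWAT, with Csf3r (2.68) and S100a8 (2.59) first, and for 6 of 7 in BAT, with Csf3r (4.54) and Cxcr2 (4.33) first and Retnlg (1.86) last. Their summed level was 20.3 to 171 CPM in Control iWAT, 147 to 528 in Ai-α4KO iWAT, 12.4 to 36.4 in Control BAT and 202 to 365 in Ai-α4KO BAT. NK cell markers rose for 5 of 8 in iWAT and 7 of 8 in BAT, among them Klre1, from 5 to 29 counts per library to 29 to 151 in iWAT and from 0 to 4 counts to 22 to 76 in BAT. The smallest called values were in Klrb1c (1.73) in iWAT and Nkg7 (1.96) in BAT.

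Of 8 mast cell markers, the 6 that rose in BAT included the IgE receptor genes Fcer1a and Ms4a2, which also stand among the Fc receptors above, while Kit fell by 1.42 in iWAT and by 2.07 in BAT. In iWAT Hdc (2.10) rose. B cell markers had a median of -3.94 over 8 tested genes in iWAT, where Control replicates 1 and 4 had summed levels of 528 and 212 CPM against 6.84 to 15.7 CPM in the other 8 libraries, and Cd79a passed (-5.01). In BAT Cd79b (1.27) and Fcrla, given above in counts, rose among 4 tested, and Pax5, Cr2 and Ms4a1 were at 0 counts in at least 1 Control BAT library.

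Adipocyte markers fell for 7 of 9 genes in iWAT and 5 of 9 in BAT, with Adipoq at -2.21 and -2.15 and Pnpla2 at -2.15 and -2.59. The smallest falls called were in Pparg (-1.38) in iWAT and Cidec (-1.22) in BAT. Brown adipocyte markers fell for 5 of 6 in iWAT, led by Ucp1 (-6.57) and Cidea (-4.95), and for 2 of 6 in BAT (Ucp1, -2.39, and Cidea, -2.65). Skeletal muscle markers passed in iWAT for 0 of 10 genes by edgeR, and for 0 at an unadjusted p under 0.05, and rose for 8 of 10 in BAT, with Tnnt3 (2.36) and Tnni2 (2.24) first and Ckm (1.83) last.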
